A study of Homo sapiens with 6 samples.

Results

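The collagen genes were followed in RNA of xenografts grown from MHCC97L, an established cell line of human hepatocellular carcinoma. Tumours given recombinant human lumican (rhLUM, 3 libraries) were set against control tumours (Ctrl, 3 libraries). Every row of the expression tables whose symbol has the form of a collagen chain (COL, a type number, A, a chain number) was taken, which gave 44 genes of 60725 rows, each on a single row. Pseudogenes and antisense RNAs of collagen genes have other symbols and are not among them. The labels used here name neither the control agent, dose, route, duration nor host strain. They do not say that each library is a tumour of its own, so the spread behind each p-value is that of these libraries and may be purely technical. A xenograft grows in a host animal, whose own fibroblasts and vessels make collagen. Removal of host reads is not stated, so a host transcript that resembles a human one can add to a value.

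A collagen molecule is a triple helix of 3 chains, made from 1 gene in some types and from several genes in others, such as types I, IV, V, VI and IX. Fibrillar collagens form the load-bearing fibrils of connective tissue, and lumican is a small proteoglycan that binds such fibrils. Type IV chains form the sheet-like network of basement membranes. The remaining types sit on fibril surfaces (the FACIT group), form beaded filaments (type VI), anchor epithelia (types VII and XVII), or carry a cleavable carboxy-terminal domain (types XV and XVIII). In liver the stellate cell and the fibroblast are the best known sources of fibrillar collagen.

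Collagen transcripts of these tumours were mostly type VI, and their summed level was lower with rhLUM. Levels are in TPM, a unit that corrects for transcript length and gives every library the same sum, so genes can be compared with each other. The mean of all 6 libraries reached 1 TPM for 19 of the 44 genes, which were tested. The level was at least 1 TPM in all 6 libraries for 12 genes, in at least 1 library for 21 genes, and in no library for 23. Tested genes numbered 7 of 11 in the fibrillar class, 2 of 6 in the type IV class and 10 of 27 in the other classes. Summed over all 44 genes, the level was 307.95, 299.82 and 299.05 TPM in the rhLUM libraries, against 363.56, 367.75 and 373.37 TPM in the Ctrl libraries. The rhLUM libraries all lay below the Ctrl libraries, at a ratio of means of 0.821. Across all genes, libraries correlated at 0.9784 to 0.9826 within a group and at 0.9278 to 0.9348 between groups, and none stood apart from its group. COL6A1 and COL6A2 held most of the collagen sum, and the other collagen genes together gave 100.8 ± 2.25 TPM in rhLUM and 126.3 ± 3.17 TPM in Ctrl (SD, n = 3 each).

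**Figure D1:**
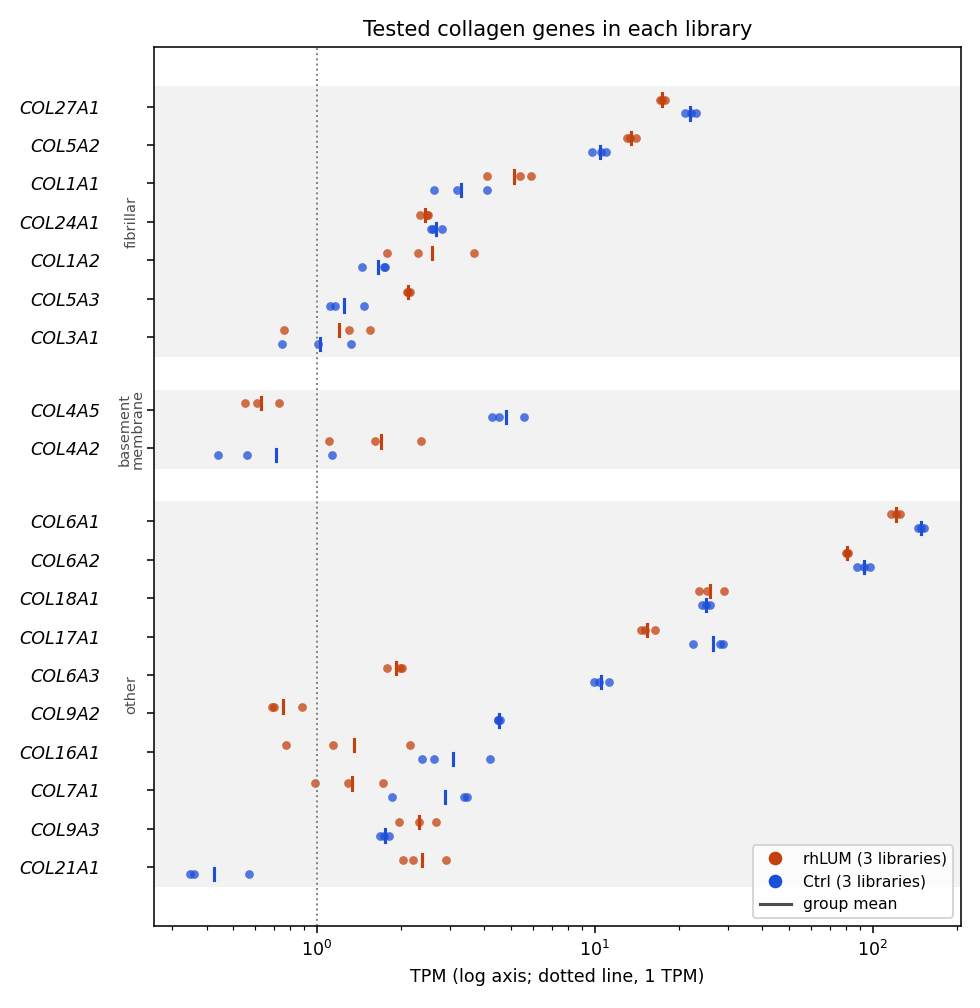
Level of each tested collagen gene in each library (TPM, log axis), with rhLUM above Ctrl in each row, points for libraries and a vertical tick for the group mean. COL6A1 and COL6A2 stand highest, and the group means of COL4A5, COL9A2, COL6A3 and COL21A1 lie far apart.

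Of the 19 tested collagen genes, 5 were higher and 9 lower with rhLUM at an adjusted p under 0.05, and 5 did not pass. The test was limma on log2(TPM + 1), with Benjamini-Hochberg adjustment over all 14781 genes tested. Over all genes 44.5% were called higher and 22.3% lower, or 66.8% in either direction, against 26.3% higher, 47.4% lower and 73.7% in all for the tested collagens. The median log2 fold change of the tested collagens was -0.09, against 0.16 over all genes. Median-of-ratios scaling shifted the all-gene median by -0.18, and with it 2 collagens were called higher and 9 lower, against 32.7% and 32.5% of all genes (65.1% either way). An adjustment for GC content and length gave 3 higher and 10 lower, against 37.1% and 29.4% of all genes (66.5% either way). The number called higher fell to 3 without library rhLUM C or without Ctrl A. The libraries of the 2 groups did not overlap for 16 of the 19 genes, against 71.4% of all tested genes. A gene near the threshold of 1 TPM can pass it through its higher group alone: COL4A5 and COL9A2 averaged 1 TPM or more only in Ctrl, and COL4A2 and COL21A1 only in rhLUM. The counts are given for description for that reason.

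**Figure D2:**
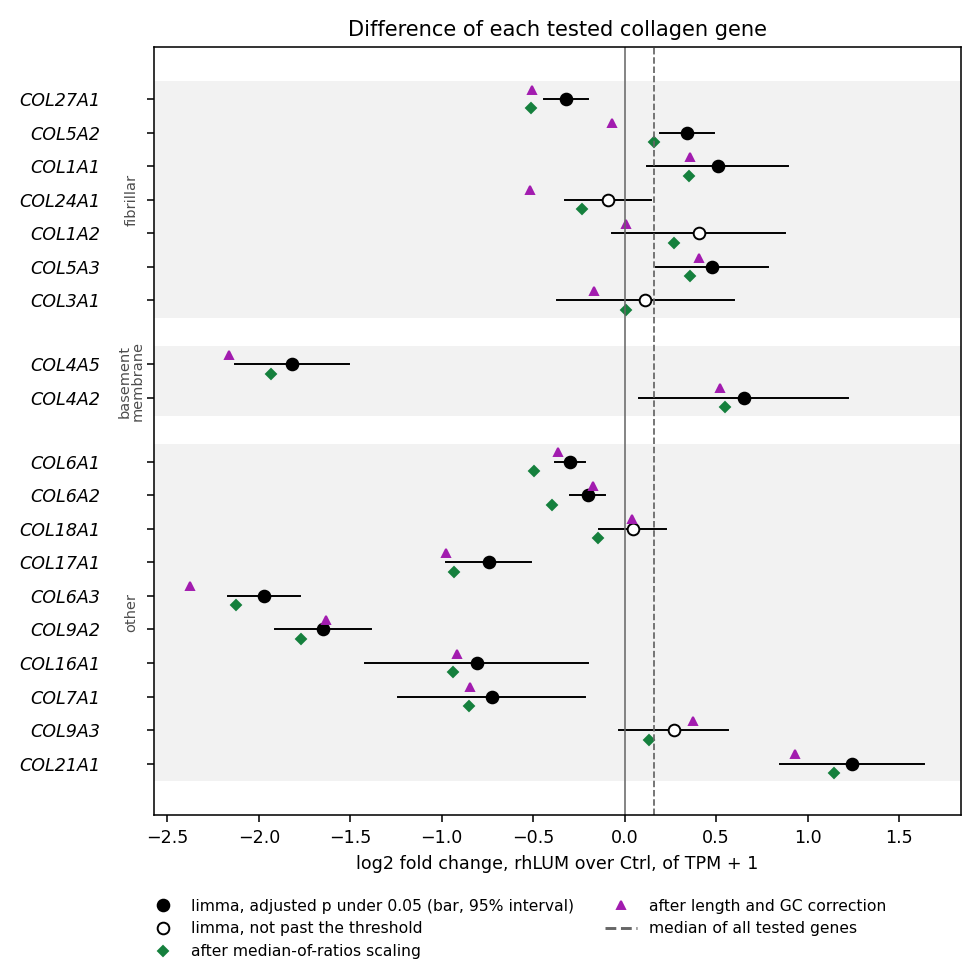
Log2 fold change of TPM + 1, rhLUM over Ctrl, for each tested collagen gene, with the 95% interval of limma, the value after median-of-ratios scaling and the value after an adjustment for transcript GC content and length. Filled circles passed an adjusted p of 0.05, and the dashed line is the median of all tested genes, 0.16.

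The call of 8 genes was the same in all alternative settings in which they were tested: COL21A1 was higher, and COL4A5, COL6A1, COL6A2, COL6A3, COL9A2, COL17A1 and COL27A1 were lower. Of these, COL4A5, COL9A2 and COL21A1 were not tested in the fit with at least 1 TPM in all 6 libraries. Stretches upstream of the gene starts are given for those of the 8 genes with a tabled promoter, apart from COL21A1 and COL6A3. The stretches shown have at least 60 bases and lie outside every annotated exon. They come from RefSeq on GRCh38.p14 and are read 5′ to 3′ on the gene's strand, with exons taken from GENCODE 29. For COL21A1 the RefSeq table lists 3 starts and none is shown. For COL6A3 the stretch outside exons had 39 bases, too short to be shown. Capitals mark matches, on either strand, to the letters TATAAA, known as the TATA box, to the CCAAT box, to the GC box GGGCGG or to the AP-1 motif TGANTCA.
COL4A5 (chrX:108439588-108439837, plus strand): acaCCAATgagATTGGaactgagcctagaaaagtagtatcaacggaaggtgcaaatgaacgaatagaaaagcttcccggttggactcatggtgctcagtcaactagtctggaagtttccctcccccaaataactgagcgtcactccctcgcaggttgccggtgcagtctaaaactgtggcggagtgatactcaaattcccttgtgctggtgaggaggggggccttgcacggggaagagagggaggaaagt
COL6A2 (chr21:46097862-46098096, plus strand): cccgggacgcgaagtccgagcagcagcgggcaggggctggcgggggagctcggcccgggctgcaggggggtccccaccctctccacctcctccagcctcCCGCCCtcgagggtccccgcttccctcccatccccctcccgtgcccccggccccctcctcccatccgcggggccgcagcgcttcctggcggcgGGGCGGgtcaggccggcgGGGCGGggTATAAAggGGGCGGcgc
COL9A2 (chr1:40317389-40317536, minus strand): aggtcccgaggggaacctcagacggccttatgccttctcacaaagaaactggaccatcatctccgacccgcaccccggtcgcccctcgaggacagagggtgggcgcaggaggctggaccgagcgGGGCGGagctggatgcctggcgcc
COL17A1 (chr10:104085958-104086130, minus strand): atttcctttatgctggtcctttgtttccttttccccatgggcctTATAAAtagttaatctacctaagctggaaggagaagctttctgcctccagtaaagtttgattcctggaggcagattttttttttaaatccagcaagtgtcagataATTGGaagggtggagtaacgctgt
COL27A1 (chr9:114155287-114155536, plus strand): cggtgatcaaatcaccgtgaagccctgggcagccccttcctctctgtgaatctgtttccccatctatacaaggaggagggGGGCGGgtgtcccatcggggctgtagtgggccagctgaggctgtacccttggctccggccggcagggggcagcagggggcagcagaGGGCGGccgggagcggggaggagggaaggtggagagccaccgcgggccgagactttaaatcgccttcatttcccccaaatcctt
The COL6A2 stretch held a TATA box beside 4 GC boxes and was 79.6% G and C, whereas the COL17A1 stretch held a TATA box and a CCAAT box, no GC box, and was 40.5% G and C. The COL4A5 stretch, which lies between the divergent starts of COL4A5 and COL4A6, held 2 CCAAT boxes on opposite strands. COL27A1 held 2 GC boxes and COL9A2 held 1. Over the full 250 bases upstream, a GC box was found for 10 of the 13 tested collagens with a tabled promoter and in 42.3% of 27305 promoters. A collagen was counted if any of its tabled starts held the motif, whereas the 27305 promoters are the first tabled start of each gene. A collagen with several starts thus had more sequence to match, and the shares are not on the same measure. A TATA box was found for 4 of 13, against 11.1% of all promoters, a CCAAT box for 4 of 13, against 33.0%, and the AP-1 motif for 0 of 13, against 6.6%. A match describes the letters and not a site in use.

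The fibrillar collagens changed little as a sum, and single genes did not go in a single direction. COL5A2, a chain of type V collagen, which nucleates fibrils, had 13.05, 13.33 and 14.02 TPM in rhLUM and 10.55, 10.94 and 9.79 TPM in Ctrl, with no overlap. It rose by 0.34 on the log2 scale (SE 0.06, limma adjusted p = 0.002), which lies 0.18 above the median gene. The call ended after median-of-ratios scaling (0.16, adjusted p = 0.0554) and upper quartile scaling (0.12, adjusted p = 0.114), and the sign turned after the adjustment for GC and length (-0.07, adjusted p = 0.316). COL5A3, another type V chain, had 2.15, 2.13 and 2.10 TPM in rhLUM and 1.11, 1.16 and 1.48 TPM in Ctrl, again with no overlap. It rose by 0.48 (SE 0.13, limma adjusted p = 0.0133), a call that ended with upper quartile scaling (adjusted p = 0.0558). COL5A1, the chain found in most type V molecules, reached at most 0.53 TPM in any library and was not tested.

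COL27A1 was the most abundant fibrillar gene and the single one called lower. It encodes a fibrillar collagen of developing cartilage. The rhLUM libraries had 17.37, 17.88 and 17.11 TPM, against 21.03, 22.12 and 23.04 TPM in Ctrl. All rhLUM values lay below all Ctrl values. The log2 fold change was -0.32 with an SE of 0.05 (adjusted p = 9.91e-04, limma). COL24A1, its closest relative in the fibrillar family, had 2.34, 2.49 and 2.51 TPM in rhLUM and 2.62, 2.82 and 2.57 TPM in Ctrl, and its log2 fold change of -0.09 did not pass (adjusted p = 0.445) except after the adjustment for GC and length (-0.52, adjusted p = 0.00176).

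The chains of types I and III, the main collagens of scar and tumour stroma, were low. COL1A1 had 5.35, 4.09 and 5.89 TPM in rhLUM, against 2.64, 4.08 and 3.18 TPM in Ctrl, so that the lowest rhLUM library all but met the highest Ctrl library. Its log2 fold change of 0.51 (SE 0.16, limma adjusted p = 0.0272) held in 5 of 15 alternatives. It was lost after median-of-ratios scaling (0.35, adjusted p = 0.0939) and without rhLUM A (adjusted p = 0.0805), rhLUM C (0.096), Ctrl A (0.0888) or Ctrl C (0.0771). COL1A2, its partner in the type I trimer, had 1.79, 2.31 and 3.66 TPM in rhLUM and 1.76, 1.74 and 1.45 TPM in Ctrl. The difference of 0.40 did not pass (95% interval -0.07 to 0.88, adjusted p = 0.112), and it passed without rhLUM A (0.57, adjusted p = 0.0361). It was 0.20 without rhLUM C and 0.009 after the adjustment for GC and length (adjusted p = 0.97). COL3A1 had 0.76, 1.30 and 1.55 TPM in rhLUM and 0.75, 1.32 and 1.01 TPM in Ctrl, with groups that overlap (0.11, 95% interval -0.37 to 0.60, adjusted p = 0.643). The ratio of COL1A2 to COL1A1 was 0.507 ± 0.152 in rhLUM and 0.516 ± 0.131 in Ctrl (SD, n = 3 each), with overlapping groups. Summed over the class, fibrillar collagens gave 44.9 ± 2.16 TPM in rhLUM and 42.7 ± 1.97 TPM in Ctrl, with overlap. Their share of all collagen transcripts was 14.9 ± 0.912% in rhLUM and 11.6 ± 0.486% in Ctrl.

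Of 13 markers of fibroblasts and stellate cells found, 3 had a mean of at least 1 TPM. FBLN1 averaged 14.9 TPM in rhLUM and 8.69 TPM in Ctrl and TAGLN 12.8 TPM in rhLUM and 10.6 TPM in Ctrl, both called higher, while LRAT, at 4.69 TPM in rhLUM and 6.40 TPM in Ctrl, was called lower. FAP averaged 1.11 TPM in rhLUM and 0.737 TPM in Ctrl, ACTA2 0.713 TPM in rhLUM and 0.757 TPM in Ctrl, and PDGFRB 0.35 TPM in rhLUM and 0.077 TPM in Ctrl, each below the mean needed for the test. After median-of-ratios scaling 1 of the 3 tested markers was called higher and 1 lower, against 32.7% and 32.5% of all genes. The adjustment for GC and length also gave 1 and 1, against 37.1% and 29.4%. As deposited, the summed level of the list was 33.5 to 36.6 TPM in the rhLUM libraries and 25.1 to 29.4 TPM in the Ctrl libraries, and the sum was not rescaled. Of the other members, TCF21 was listed at 0 in all libraries, PDGFRA and THY1 reached at most 0.03 TPM and POSTN at most 0.15 TPM. The part of these markers in the type I values was not tested. In bulk tissue, fewer cells of a type and less RNA per cell cannot be told apart. The tumour cell label was checked on 9 liver and epithelial markers, of which 8 had a mean of at least 1 TPM. Of these 8, 6 were called higher and 1 lower, against 44.5% and 22.3% of all genes. KRT8, ALB and AFP averaged 2474, 825 and 28.6 TPM in rhLUM and 1060.3, 289 and 31.2 TPM in Ctrl. EPCAM, the marker called lower, averaged 0.82 TPM in rhLUM and 2.03 TPM in Ctrl. APOA1, at 1.21 TPM in rhLUM and 0.323 TPM in Ctrl, was below the mean needed for the test.

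The basement membrane class was carried by 2 genes, COL4A5 and COL4A2. COL4A5, the gene of the alpha 5 chain, which assembles with alpha 3 and alpha 4 or with alpha 6, had 0.55, 0.73 and 0.61 TPM in rhLUM, against 5.54, 4.5 and 4.26 TPM in Ctrl. All rhLUM libraries were under 1 TPM and all Ctrl libraries above 4 TPM. The mean was 7.57 times as high in Ctrl, and the log2 fold change of TPM + 1 was -1.82 (SE 0.13, limma adjusted p = 1.85e-05). Its trimer partners COL4A3, COL4A4 and COL4A6 reached at most 0.01, 0.07 and 0.02 TPM in any library. COL4A6 lies head to head with COL4A5 on chromosome X (108155607 to 108439497, minus strand, and 108439844 to 108697545, plus strand, GRCh38), yet the 2 genes differed in level in every Ctrl library.

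COL4A2, which encodes the alpha 2 chain of the ubiquitous type IV trimer, had 2.37, 1.10 and 1.62 TPM in rhLUM and 0.44, 0.56 and 1.13 TPM in Ctrl. The highest Ctrl library lay above the lowest rhLUM library. Its log2 fold change of 0.65 (SE 0.24, limma adjusted p = 0.0465) held in 4 of 14 alternatives. It was lost after median-of-ratios scaling (0.55, adjusted p = 0.081) and without rhLUM A (adjusted p = 0.128), rhLUM C (0.0908), Ctrl A (0.124) or Ctrl B (0.112). COL4A1, whose product supplies the other 2 chains of that trimer and whose gene overlaps the start of COL4A2 on the opposite strand, reached at most 0.21 TPM in any library. The use of strand in counting is not given. The 6 type IV genes together gave 2.44 ± 0.535 TPM in rhLUM and 5.65 ± 0.523 TPM in Ctrl (SD, n = 3 each), at a ratio of 0.432. COL4A5 fell by more than the sum did, and COL4A2 lay higher. The type IV share of collagen transcripts was 0.806 ± 0.164% in rhLUM and 1.53 ± 0.157% in Ctrl.

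**Figure D3:**
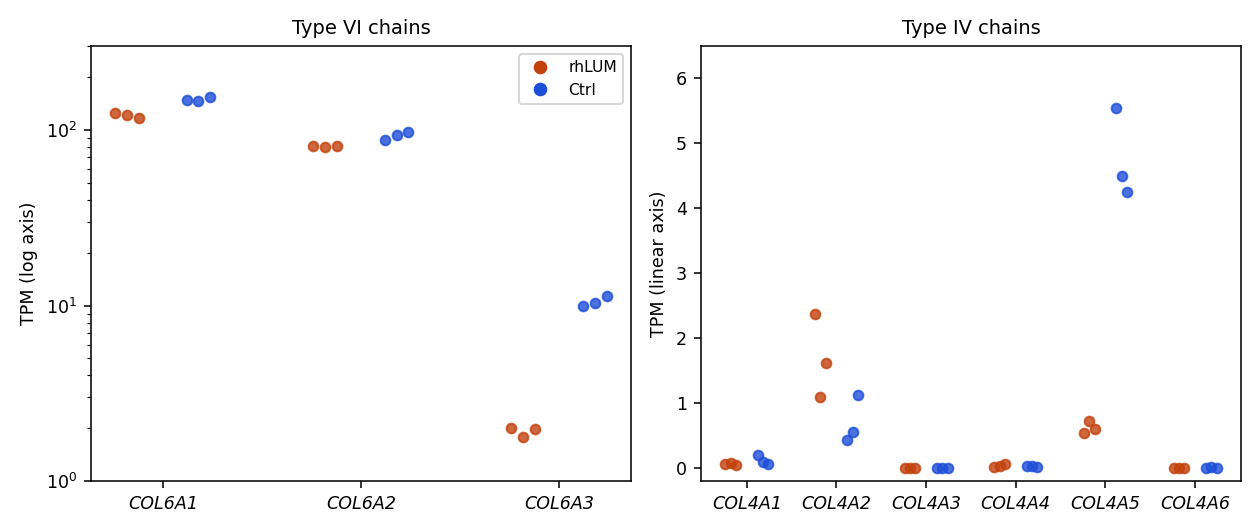
TPM of the type VI chains (left, log axis) and of the type IV chains (right, linear axis) in each library, rhLUM left of Ctrl for each gene. COL6A3 and COL4A5 are lower in all 3 rhLUM libraries, at 1.93 and 0.63 TPM on average, while COL4A1, COL4A3, COL4A4 and COL4A6 lie near 0 in both groups.

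The collagens that anchor epithelia, COL7A1 and COL17A1, were called lower with rhLUM. For COL7A1 the call held in 9 of 14 alternatives. COL17A1, a transmembrane collagen of the hemidesmosome, had 16.41, 15.11 and 14.61 TPM in rhLUM, against 28.91, 28.15 and 22.57 TPM in Ctrl. All rhLUM values lay below all Ctrl values, and the log2 fold change was -0.74 with an SE of 0.10 (adjusted p = 4.05e-04, limma). COL7A1, the anchoring fibril collagen, had 0.98, 1.72 and 1.29 TPM in rhLUM and 1.86, 3.37 and 3.46 TPM in Ctrl. The groups did not overlap, although rhLUM B came close to Ctrl A. It fell by 0.72 (SE 0.22, limma adjusted p = 0.0203), a call lost without rhLUM A (adjusted p = 0.0638), rhLUM C (0.0561), Ctrl B (0.0725) or Ctrl C (0.0725), and without the filter (0.0546). COL18A1, the precursor of endostatin, had 29.16, 25.21 and 23.67 TPM in rhLUM and 25.98, 24.23 and 25.11 TPM in Ctrl. Its groups overlapped, and the log2 fold change of 0.04 (95% interval -0.14 to 0.23, adjusted p = 0.631) turned to -0.15 (adjusted p = 0.138) after median-of-ratios scaling. COL18A1 overlaps SLC19A1 on the opposite strand, at 6.96 TPM in rhLUM and 6.5 TPM in Ctrl on average. With COL7A1, COL15A1, COL17A1 and COL18A1 counted beside the type IV chains, the class gave 45.2 ± 3.96 TPM in rhLUM and 60.2 ± 3.25 TPM in Ctrl (SD, n = 3 each), at a ratio of 0.75.

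**Figure D4:**
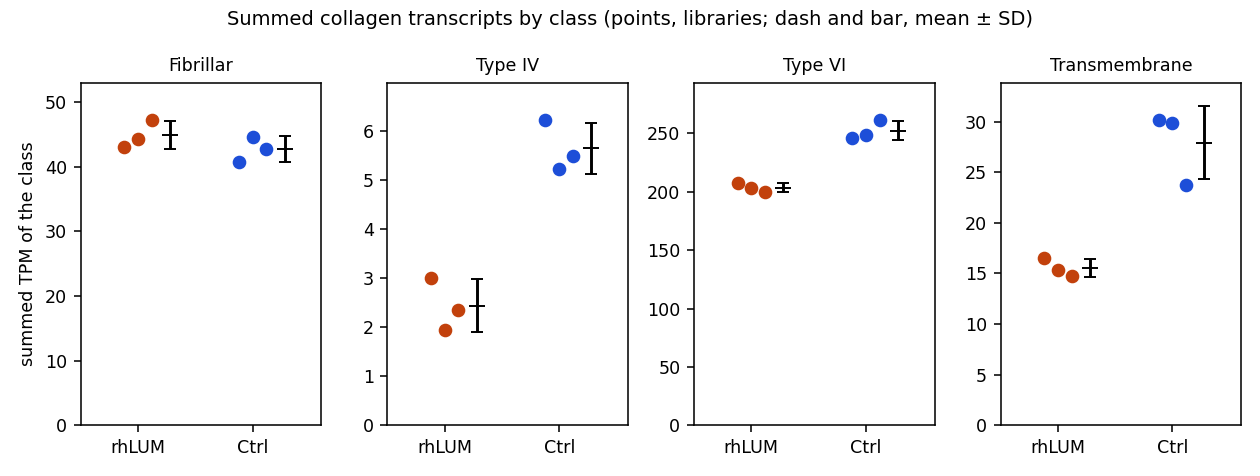
Summed TPM of the fibrillar, type IV, type VI and transmembrane collagen genes in each library, each axis starting at 0, with the mean and SD of 3 libraries beside the points. The fibrillar sums overlap, at 44.9 TPM in rhLUM and 42.7 TPM in Ctrl, and the other sums lie lower in every rhLUM library.

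Type VI collagen, a beaded filament next to cell surfaces, was the main collagen at the RNA level and COL6A3 stood out among its chains. COL6A1 had 124.71, 121.59 and 116.59 TPM in rhLUM, against 148.66, 145.61 and 153.27 TPM in Ctrl. COL6A2 had 80.49, 79.87 and 81.05 TPM in rhLUM, against 87.90, 93.06 and 97.25 TPM in Ctrl. Each was lower in every rhLUM library than in every Ctrl library, by -0.30 (SE 0.04, limma adjusted p = 1.98e-04) for COL6A1 and -0.20 (SE 0.04, limma adjusted p = 0.00353) for COL6A2. COL6A3, the long chain that the trimer also requires, had 2.02, 1.79 and 1.98 TPM in rhLUM, against 9.90, 10.35 and 11.26 TPM in Ctrl. The Ctrl mean was 5.44 times the rhLUM mean, and the log2 fold change was -1.97 with an SE of 0.08 (adjusted p = 1.54e-06, limma). The ratio of COL6A3 to COL6A2 was 0.024 ± 0.0014 in rhLUM and 0.113 ± 0.00234 in Ctrl, and the ratio of COL6A1 to COL6A2 was 1.5 ± 0.0578 in rhLUM and 1.61 ± 0.07 in Ctrl (SD, n = 3 each). The first of these ratios was chosen after its values were seen. COL6A1 and COL6A2 are neighbours on chromosome 21 (45981737 to 46005050 and 46098097 to 46132849, GRCh38, plus strand), and COL6A3 lies on chromosome 2 (237324003 to 237414375, minus strand). COL6A5 and COL6A6 were listed at 0 in all libraries. The type VI genes made up 67.3 ± 0.52% of collagen transcripts in rhLUM and 68.5 ± 1.36% in Ctrl.

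FACIT collagens, which coat fibrils, went both ways. COL9A2, a chain of type IX collagen, had 0.88, 0.70 and 0.69 TPM in rhLUM, against 4.48, 4.55 and 4.46 TPM in Ctrl. All rhLUM libraries were under 1 TPM, the Ctrl mean was 5.94 times as high, and the log2 fold change was -1.65 with an SE of 0.11 (adjusted p = 1.26e-05, limma). COL9A3, its partner in the type IX trimer, went the opposite way without passing, with 2.67, 1.97 and 2.33 TPM in rhLUM and 1.82, 1.69 and 1.74 TPM in Ctrl. That difference was 0.27 (95% interval -0.03 to 0.57, adjusted p = 0.0983), and it passed without rhLUM B (adjusted p = 0.0421), without the variance trend (0.0324) and after the adjustment for GC and length (0.0227). It was 0.14 after median-of-ratios scaling (adjusted p = 0.369) and 0.11 after upper quartile scaling (adjusted p = 0.461). COL9A3 overlaps TCFL5 on the opposite strand, which averaged 7.09 TPM in rhLUM and 5.41 TPM in Ctrl. The third chain of type IX, COL9A1, reached at most 0.15 TPM.

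COL21A1, a FACIT collagen of vessel walls, was the collagen gene that rose most. It had 2.04, 2.22 and 2.92 TPM in rhLUM and 0.35, 0.57 and 0.36 TPM in Ctrl. Every rhLUM library exceeded every Ctrl library, and the log2 fold change of TPM + 1 was 1.25 (SE 0.17, limma adjusted p = 4.35e-04). COL16A1, which associates with fibrils and with microfibrils, had 1.14, 0.77 and 2.15 TPM in rhLUM and 4.19, 2.64 and 2.39 TPM in Ctrl. The groups did not overlap but rhLUM C lay near Ctrl C. It fell by 0.81 (SE 0.26, limma adjusted p = 0.0267), and the call was lost without rhLUM A (adjusted p = 0.0755), rhLUM B (0.0842), Ctrl A (0.0883) or Ctrl B (0.0557), and without the filter (0.0705). Endothelial markers, given beside a vessel wall gene, had 4 of 10 at a mean of at least 1 TPM and a sum of 45.9 to 49.4 TPM in the rhLUM libraries and 34.5 to 35.7 TPM in the Ctrl libraries. The sum was not rescaled. PECAM1 averaged 25.3 TPM in rhLUM and 16.4 TPM in Ctrl and ESAM 18.2 TPM in rhLUM and 12.7 TPM in Ctrl, both called higher, while CDH5, at 0.45 TPM in rhLUM and 3.10 TPM in Ctrl, was called lower (-1.50). KDR, at 3.36 TPM in rhLUM and 2.72 TPM in Ctrl, did not pass (limma adjusted p = 0.0561). Of the 4 tested markers 50% were thus higher and 25% lower, against 44.5% and 22.3% of all genes. VWF and TEK reached at most 0.26 and 0.09 TPM. TIE1, CLDN5, EMCN and ERG were at 0 in all rhLUM libraries and at most 0.04 TPM in Ctrl, and the part of these markers in the COL21A1 value was not tested.

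Among the 25 collagen genes left out of the test by their mean, COL13A1 stood apart. It encodes a transmembrane collagen of cell junctions and had 0.07, 0.19 and 0.11 TPM in rhLUM, against 1.27, 1.70 and 1.21 TPM in Ctrl. All Ctrl libraries were above 1 TPM and all rhLUM libraries below 0.2 TPM. In a fit without the filter, in which 34.7% of 29333 genes were called, its log2 fold change was -1.09 with an SE of 0.11 (adjusted p = 5.5e-04, limma). In that fit 2 of the 21 such collagens with any value above 0 passed, the other being COL8A2 at 0.03, 0.01 and 0.01 TPM in rhLUM and 0.09, 0.10 and 0.10 TPM in Ctrl, a level too low to read a change from. COL12A1, a FACIT collagen, had 0.47, 1.10 and 0.55 TPM in rhLUM and 0.71, 0.82 and 0.87 TPM in Ctrl, and COL28A1 stayed under 1 TPM in all libraries, both with overlapping groups. The other 22 genes reached at most 0.53 TPM in any library. COL6A5, COL6A6, COL19A1 and COL23A1 were listed at 0 throughout.

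Further genes of collagen biology are given by list, beside the shares of all genes called: 44.5% higher and 22.3% lower as deposited, 32.7% and 32.5% after median-of-ratios scaling, and 37.1% and 29.4% after the adjustment for GC and length. Of 12 tested members of the folding and export list, 10 were higher and 1 lower (83.3% and 8.33%), and their median log2 fold change was 0.56, against 0.16 over all genes (8 and 2 after median-of-ratios scaling, 6 and 2 after the adjustment for GC and length). SEC23A, a coat subunit of the vesicles that leave the endoplasmic reticulum, had 60.8 ± 1.49 TPM in rhLUM and 25.5 ± 0.666 TPM in Ctrl (SD, n = 3 each), a log2 fold change of 1.22 (limma adjusted p = 4.57e-07). SEC24D, its cargo-binding partner, rose by 0.78, the cargo receptor SURF4 by 0.72 and the procollagen-binding protein TMEM131 by 0.75.

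Of 12 tested genes of prolyl and lysyl hydroxylation and collagen glycosylation, 6 were higher and 3 lower (50% and 25.0%, near the 44.5% and 22.3% of all genes), and 3 and 5 after median-of-ratios scaling, against 32.7% and 32.5%. CRTAP, a component of the prolyl 3-hydroxylation complex, had 178 ± 3.65 TPM in rhLUM and 65.7 ± 2.22 TPM in Ctrl (SD, n = 3 each), a log2 fold change of 1.42 (limma adjusted p = 1.54e-07). P4HA1 and P4HA2, catalytic subunits of prolyl 4-hydroxylase, rose by 0.83 and 0.42. P4HB, the gene of this list with the highest level, averaged 1258 TPM in rhLUM and 1395 TPM in Ctrl. It was called lower (-0.15, limma adjusted p = 7.13e-04), as was PLOD2 (-0.14). PPIB, a prolyl isomerase of the same complex as CRTAP, fell by 0.26.

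Of 6 tested genes of procollagen cleavage and cross-linking, 2 were higher and 3 lower (33.3% and 50%, against 44.5% and 22.3% of all genes), or 1 and 3 after median-of-ratios scaling, against 32.7% and 32.5%. The genes called lower were LOX, LOXL1 and LOXL2, lysyl oxidases that cross-link secreted collagen. LOXL3, at 0.357 TPM in rhLUM and 0.23 TPM in Ctrl, and LOXL4, at 0.493 TPM in rhLUM and 1.47 TPM in Ctrl, were below the mean needed for the test. LOX had 4.44, 4.69 and 5.56 TPM in rhLUM, against 12.64, 12.49 and 12.37 TPM in Ctrl, a log2 fold change of -1.20 (limma adjusted p = 1.47e-05). LOXL1 had 25.30, 17.12 and 17.09 TPM in rhLUM, against 43.20, 49.08 and 39.35 TPM in Ctrl, a log2 fold change of -1.12 (limma adjusted p = 5.34e-04). LOXL2 fell by 0.20 (adjusted p = 0.0299), a call lost without rhLUM A (adjusted p = 0.0658), rhLUM C (0.0884), Ctrl A (0.0565), Ctrl B (0.0978) or Ctrl C (0.0583), and without the filter (0.0605). BMP1, the procollagen C-proteinase, rose by 0.43.

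**Figure D5:**
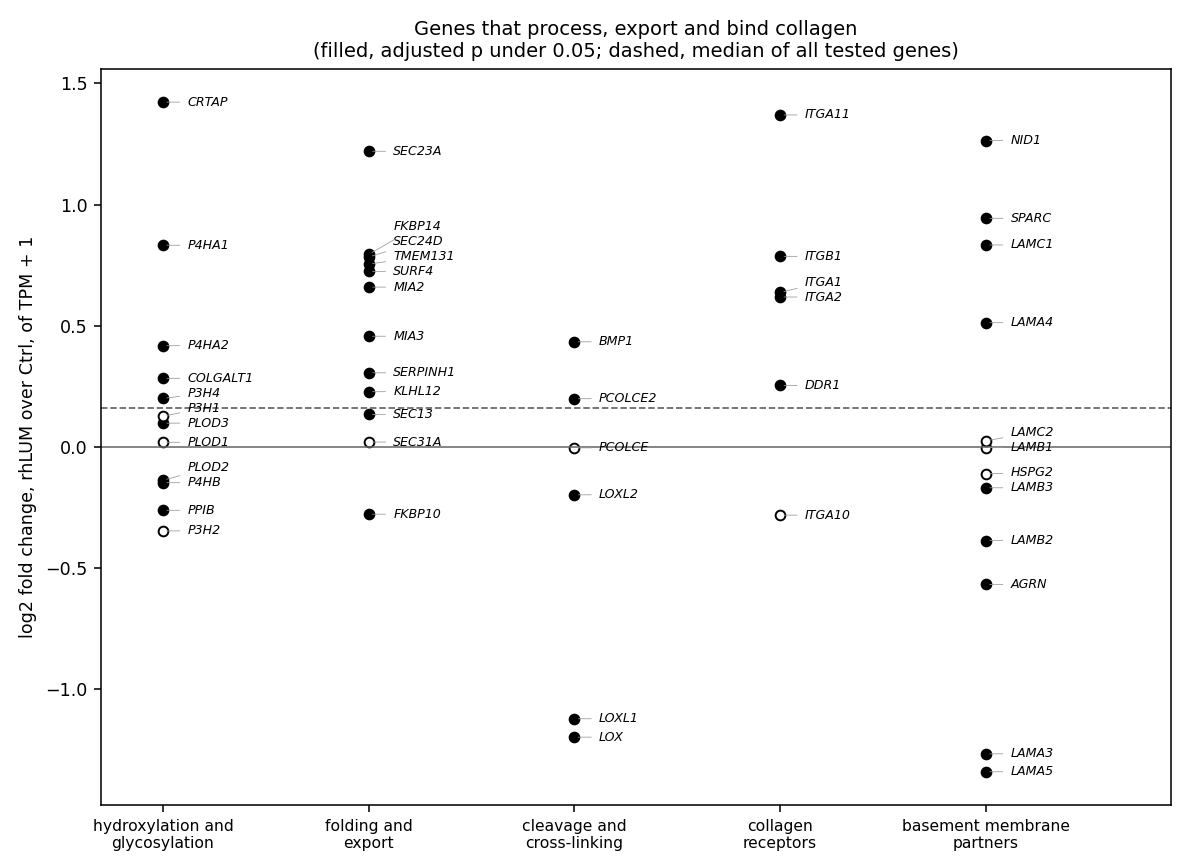
Log2 fold change of TPM + 1, rhLUM over Ctrl, of each tested gene in 5 lists of genes that modify, export, cleave, cross-link or bind collagen or share its basement membrane. Of the 12 folding and export genes 10 were called higher, and LOX, LOXL1, LAMA3 and LAMA5 lie lowest.

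Of 10 receptors for collagen 6 were tested, of which 5 were higher and none lower (83.3% higher, against 44.5% of all genes). After median-of-ratios scaling and after the adjustment for GC and length, 4 were higher and 1 lower. ITGA10 averaged 2.45 TPM in rhLUM and 3.22 TPM in Ctrl and did not pass (limma adjusted p = 0.0833), and LAIR1 was listed at 0 in the rhLUM libraries and averaged 0.34 TPM in Ctrl. ITGB1, the beta subunit shared by the collagen-binding integrins, had 375.8 ± 1.99 TPM in rhLUM and 217 ± 1.69 TPM in Ctrl (SD, n = 3 each), a log2 fold change of 0.79 (limma adjusted p = 1.38e-07). ITGA11 averaged 2.77 TPM in rhLUM and 0.453 TPM in Ctrl, so it reached the test through rhLUM alone. The count of receptors is given for description for that reason. The alpha subunit genes ITGA2, ITGA11 and ITGA1 rose by 0.62, 1.37 and 0.64. After the adjustment for GC and length these values were 0.18 (adjusted p = 0.0363), 0.92 (adjusted p = 0.00112) and 0.17 (adjusted p = 0.219), the last not past the threshold. Of 12 tested basement membrane partners 4 were higher and 5 lower (33.3% and 41.7%, against 44.5% and 22.3% of all genes), or 4 and 7 after median-of-ratios scaling, against 32.7% and 32.5%. The laminin chain genes LAMA3 and LAMA5 changed by -1.27 and -1.34, while NID1, which links laminin to type IV collagen, and the collagen-binding SPARC changed by 1.26 and 0.94. Of the small proteoglycans that bind fibrillar collagen, 2 of 8 were tested: LUM had 95.41, 92.06 and 99.14 TPM in rhLUM, against 23.62, 26.47 and 23.95 TPM in Ctrl, and DCN had 1.24, 1.59 and 0.96 TPM in rhLUM, against 8.34, 7.65 and 7.88 TPM in Ctrl.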

How the data were processed

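Per the labels' protocols, poly-A RNA of the xenografts was made into libraries (KAPA mRNA HyperPrep) and sequenced as read pairs. STAR 2.7.8, RSEM 1.2.31 and GRCh38 are named in the submitters' processing notes. The sources used here give no annotation release or strand setting. The authors deposited TPM, per the file headers, with 2 decimals and 60725 rows per library. TPM keeps no depth, so the depth of the libraries is unknown and no counting interval is given. Rows sharing a symbol with another row (2210) were left out, none of them a collagen gene.

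Genes averaging at least 1 TPM across 6 libraries were fitted with limma 3.58.1 in R 4.3.3 on log2(TPM + 1), with the variance trend and group as the only term. Tests were two-sided, with Benjamini-Hochberg adjustment across 14781 genes, at a threshold of 0.05. Fold changes are rhLUM over Ctrl on that scale, which understates changes of low genes. With 3 libraries a group, exact permutation reaches p = 0.1 at best and was not used. Class sums, chain ratios and list medians were described without a test. The labels name no batch or date.

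Alternatives tried were scaling by median of ratios or by upper quartile, rescaling without mitochondrial genes, a pseudocount of 0.1, no filter, at least 1 TPM in all 6 libraries, a replicate block, no variance trend, a loess correction for transcript length and GC content (found for 86.8% of tested genes and all 19 tested collagens, GENCODE 29), and leaving out each library. The members and lists were chosen with earlier results of these data known. All collagens at 1 TPM or more were named, and up to 4 genes of each further list with the smallest p. Other genes named were chosen after their values were seen.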

Additional observations from a re-analysis of the deposited data

How the results depend on the processing

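The alternatives were followed for 41 of the named genes: the tested collagens and the genes with the smallest p of each further list. The cell type markers and ITGA10 were not among them. Of the values under an alternative, 553 kept their direction and their side of the threshold, 40 lost the call, 5 gained a call and 8 changed sign. The changes of sign were of COL18A1 (0.04 as deposited, -0.15 with median-of-ratios scaling, -0.18 with upper quartile scaling, -0.06 without mitochondrial genes, -0.04 without rhLUM A and up to 0.11 without rhLUM C), COL3A1 (-0.009 with upper quartile scaling, -0.17 after the length and GC correction, -0.001 without rhLUM C and up to 0.27 without rhLUM A) and COL5A2 (-0.07 after the length and GC correction). COL18A1 and COL3A1 were not called as deposited, and the cause was not tested.

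Collagen genes called higher numbered 5 as deposited, 2 with median-of-ratios scaling, 1 with upper quartile scaling, and 3 without mitochondrial genes, without a filter, with at least 1 TPM in all 6 libraries, with the replicate block and after the length and GC correction. With at least 1 TPM in all 6 libraries, COL4A2 and COL21A1 were not tested. Leaving out each library gave 3 to 6 higher and 7 to 8 lower, and at least 1 TPM in all libraries gave 5 lower in place of 9, since fewer genes were tested. Fibrillar genes higher (3 as deposited) were 1, 0 and 1 with median-of-ratios scaling, upper quartile scaling and the length and GC correction, which gave 2 fibrillar genes lower in place of 1. Leaving out each library gave 2 to 3 higher. The 1 type IV gene called higher, COL4A2, was called in 0 of the fits with either scaling, without mitochondrial genes, without a filter, with the block or with the correction, and in 0 to 1 on leaving out a library. With at least 1 TPM in all libraries neither COL4A2 nor COL4A5 was tested, which left 0 higher and 0 lower. Other collagens higher (1) were 2 without the trend and 2 with the correction, and 1 to 2 on leaving out a library. They were 0 with at least 1 TPM in all libraries, where COL21A1 was not tested. Other collagens lower (7) were 4 with at least 1 TPM in all libraries and 5 to 6 on leaving out a library. As deposited, 42.9% of the 7 tested fibrillar genes were called higher and 14.3% lower. Of the 2 tested type IV genes 50% went each way, and of the 10 tested other collagens 10% were higher and 70% lower. Over all genes the shares were 44.5% and 22.3%, so the fibrillar share called higher was near that of all genes. Upper quartile scaling called 5117 of all genes lower, against 3299.

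With median-of-ratios scaling the ratio of summed TPM, rhLUM over Ctrl, was 0.915 for fibrillar collagens (1.05 as deposited) and 0.694 for other collagens (0.797). Counting basement membrane zone collagens with type IV gave 0.75 (0.432 for type IV alone). Leaving out each library gave 1.02 to 1.07, 0.382 to 0.476 for type IV and 0.786 to 0.806. The difference in the ratio of COL1A2 to COL1A1 ran from -0.0667 to 0.0767, and that of COL6A1 to COL6A2 from -0.13 to -0.067.

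Letters A, B and C are shared by the groups, but deviations of same-letter libraries correlated at 0.029, -0.023 and 0.084 across genes, and not every library correlated best with its own letter. The replicate block gave 6429 genes higher and 3219 lower, against 6571 and 3299, and ended the calls of COL1A1 (adjusted p = 0.0559) and COL4A2 (adjusted p = 0.0664). Without counts, the precision of genes near 1 TPM rests on 3 libraries a group.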
